A study of Mus musculus with 4 samples.

Results

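Myogenic cells taken from regenerating mouse muscle 5 days after injury were compared with cells taken 3 days after injury, to describe genes of cell division and of withdrawal from it. The mice, of strain C57BL/6, were 8 to 12 weeks old. Cardiotoxin, a component of cobra venom that kills muscle fibres and spares satellite cells, had been given to the hind limb, and the cells were isolated directly, without culture, with the antibody SM/C-2.6, which marks muscle satellite cells. Both groups share strain, injury and isolation and differ, as labelled, in the day, and neither an uninjured muscle nor a cultured control stands beside them. The records of days 2 and 5 are worded in one way and those of days 3 and 14 in another, so that the 2 arrays compared come from different sets of records. Whether the sets were processed separately is not stated, and day and record set cannot be told apart here. The comparison takes 2 of the 4 arrays of the study (days 2, 3, 5 and 14), 1 array a day. How many animals stand behind an array is not stated in the labels. Members were chosen by label, as every gene with a probe set of its own on the Affymetrix 430A array: 20393 of 22690 probe sets carried 1 gene symbol and gave 12394 genes. Of these, 7523 were measured, meaning that the scaled signal lay above the floor of 43.0 on at least 1 of the 2 arrays, and 4871 lay at or under it on both. Signals are in arbitrary units and can be compared between arrays for 1 gene, not between genes.

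Satellite cells are the resident stem cells of muscle. After injury they enter the cell cycle, pass through S phase, in which DNA is copied, and mitosis, in which the copies are parted, and then either withdraw for good to fuse into new fibres or return to a resting state beneath the basement membrane. Withdrawal is known to involve inhibitors of cyclin-dependent kinases and the retinoblastoma proteins, which hold E2F transcription factors and, with the MuvB core, shut the promoters of S phase and mitotic genes.

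With 1 array on each side there is no replicate and no test. A gene was called higher or lower at a 2-fold ratio or more, and a ratio with 1 array at the floor is given as a lower bound. On day 5, 874 measured genes were called higher (11.6%), 449 lower (5.97%) and 6200 neither, so that 17.6% were called. The split depended on the scaling: 66.1% of calls were higher with arrays scaled to a common trimmed mean, 87.4% with values as deposited, 41.0% with a common median and 57.2% after quantile normalisation. The median log2 ratio of all measured genes was 0.06, with quartiles of -0.39 and 0.53. It lay 0.27 further up with the deposited values and 0.22 further down with a common median, and every list median below can be read against that shift. At 4-fold, 160 genes were higher and 31 lower, and at 8-fold 31 and 6. As a measure of noise, log2 ratios of different probe sets for the same gene scattered with an SD of 0.37 (5371 probe sets of 2197 genes). That SD holds nothing of the variation among animals or labelling reactions. Nat9 and Zfp623 lay just inside the 2-fold line on the higher side and Oaf and Nipbl just outside. Nras and Cpsf4 lay just inside it on the lower side and Phb2 and Las1l just outside.

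**Figure D1:**
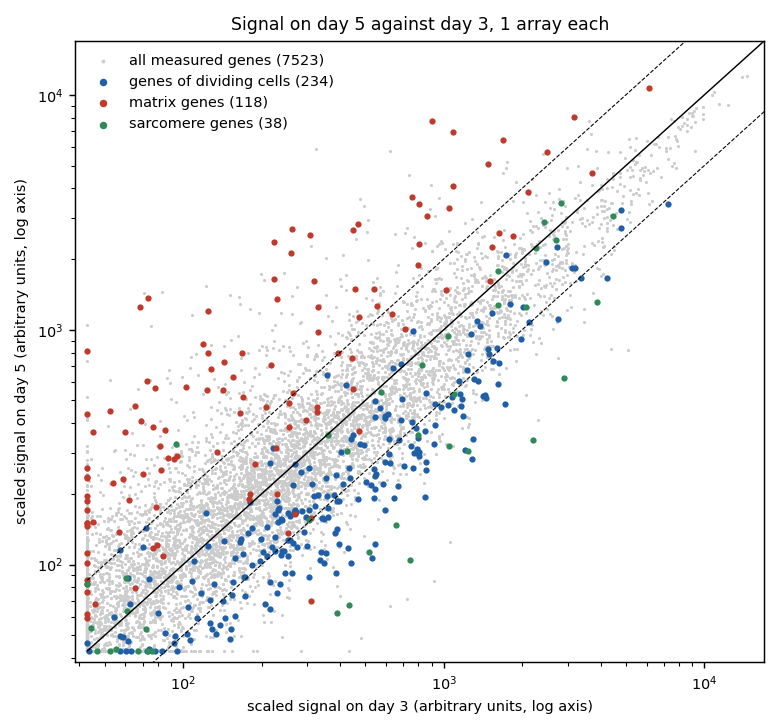
Scaled signal of the 7523 measured genes on day 3 (horizontal, log axis) and day 5 (vertical, log axis), with signals under the floor drawn at 43.0; the solid line marks equal signal and the dashed lines 2-fold. Most of the 234 measured genes of dividing cells lie below the solid line, the 118 matrix genes mostly above the upper dashed line, and the 38 sarcomere genes spread along and below the diagonal.

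The sorted cells carried their labelled identity on both days. All 8 myogenic markers lay above the floor on both arrays, among them Pax7, Myf5, Myod1, Myog, Des and Cdh15. Markers of other cell types differed at the same step. The summed signal of 26 macrophage markers was 1587 on day 3 and 4595 on day 5, with 9 and 16 of them above the floor. Of the 5 defining macrophage markers 3 lay above the floor on day 3 and 4 on day 5: Csf1r, the receptor of macrophage growth factor, read 91.0 on day 3 and 316 on day 5 (3.47-fold, probe sets from 0.51 to 1.79), Adgre1 52.6 on day 3 and 106 on day 5, Cd68 51.8 on day 3 and 88.8 on day 5 and Ptprc below the floor on day 3 and 59.7 on day 5, and Itgam lay under the floor on both days. Among measured macrophage markers 10 of 16 were called higher and none lower, 5 of 11 with a floor of 100. For 26 fibroblast and fibro-adipogenic markers the sum was 6082 and 29286, and of the 20 measured 14 were called higher and none lower (70.0% against 11.6% of all measured genes). Dpt, dermatopontin, read 70.7 on day 3 and 1430.3 on day 5 (20.2-fold) and Pdgfra below the floor on day 3 and 105 on day 5 (at least 2.45-fold), while the other defining markers Pi16, Clec3b, Dpp4 and Osr1 lay under the floor on both days. For 16 mural and smooth muscle markers it was 6476 and 14218, and of the 11 measured 6 were called higher and none lower (54.5%). Of their 6 defining markers 4 lay above the floor on day 3 and 4 on day 5, with Myh11 and Cnn1 under it on day 5. The sum was 6425 and 14962 for tendon markers and 851 and 2723 for Schwann cell and glial markers, but 1556 and 1405 for adipocyte markers. All 5 defining endothelial markers and the defining neutrophil and lymphocyte markers lay under the floor on both days. The 3'/5' probe set ratio, which tends to grow as RNA gets shorter, was 1.88 on day 3 and 2.87 on day 5 for Gapdh, and 2.20 and 2.19 for Actb. The part of these differences in the results below was not tested. In a sorted pool, fewer cells of a type and less RNA per cell cannot be told apart.

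**Figure D2:**
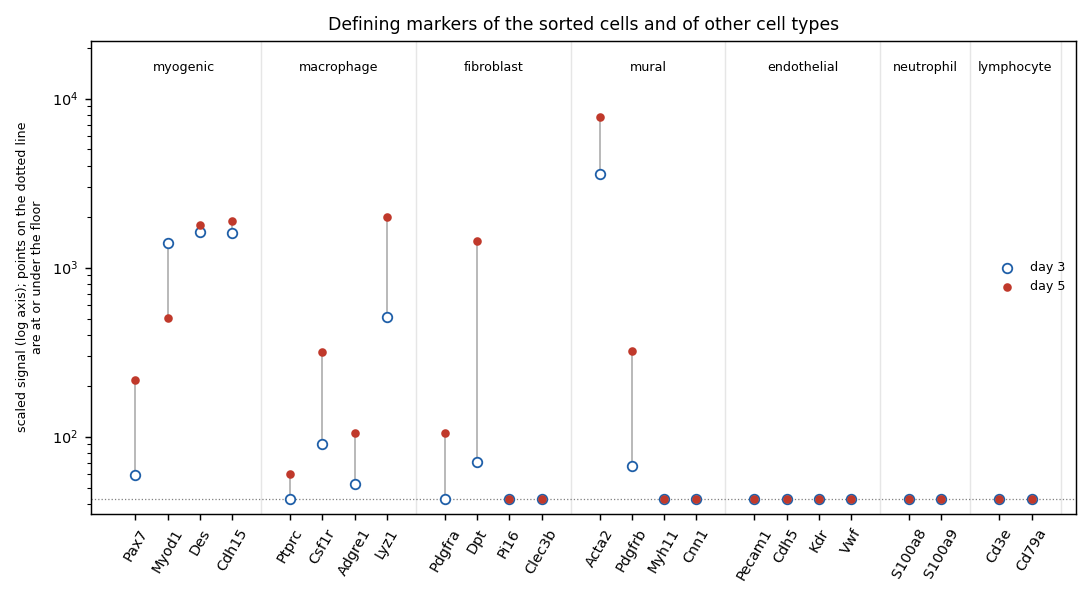
Scaled signal (log axis) of defining markers of the sorted cells and of 6 other cell types on day 3 (open circles) and day 5 (filled circles), 1 array each; the dotted line is the floor of 43.0 and points on it lie at or under it. Pax7, Des and Cdh15 are above the floor on both days, Csf1r, Lyz1, Dpt and Pdgfrb are higher on day 5, and the endothelial, neutrophil and lymphocyte markers lie at the floor.

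The genes of dividing cells read lower on day 5 as a broad group, about 2-fold, and few fell to the floor. Over 10 lists that run from the G1 switch to cytokinesis, 234 genes were measured. Of these 105 were called lower, 1 was called higher and 128 were not called, with a median log2 ratio of -0.93. That is 44.9% of the members called lower against 5.97% of all measured genes, and 23.4% of all lower calls. The count of lower members was 54 with values as deposited, 139 with a common median and 120 after quantile normalisation. Of the 105 lower members, 104 still lay above the floor on day 5, as did 226 of all 234. Set against day 3, the median member stood at 128% on day 2, 52.3% on day 5 and 40.9% on day 14. Transcripts of S phase and mitosis were thus lower, but most still read above the floor on days 5 and 14. Whether cells had left the cycle was not tested.

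Promoters of mitotic genes are shown first because they share 2 words that the choice of genes did not use. The cell cycle genes homology region, CHR, is the site through which the MuvB complexes contact mitotic promoters, and NF-Y binds the CCAAT box beside it. CHR was searched as TTTGAA or TTCGAA and the NF-Y box as CCAAT, on both strands, in the 300 bases from 250 upstream to 50 downstream of the first listed start (RefSeq, GRCm38.p6). The first 4 sequences end at the base before the start and run 5′ to 3′ on the gene's strand, with both words in capitals.
Cdk1 (chr10:69352913-69353072, minus strand): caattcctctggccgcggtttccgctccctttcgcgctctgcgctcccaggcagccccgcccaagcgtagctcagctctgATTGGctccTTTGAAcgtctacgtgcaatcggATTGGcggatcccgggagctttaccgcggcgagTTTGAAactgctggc
Ube2c (chr2:164769769-164769928, plus strand): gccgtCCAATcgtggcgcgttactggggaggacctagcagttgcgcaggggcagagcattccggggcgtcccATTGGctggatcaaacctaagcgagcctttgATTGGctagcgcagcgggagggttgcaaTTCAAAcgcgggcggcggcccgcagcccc
Cdc20 (chr4:118437344-118437503, minus strand): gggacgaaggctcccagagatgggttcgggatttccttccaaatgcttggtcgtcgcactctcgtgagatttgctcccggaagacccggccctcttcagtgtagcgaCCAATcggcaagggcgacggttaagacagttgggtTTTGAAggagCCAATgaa
Mki67 (chr7:135716380-135716539, minus strand): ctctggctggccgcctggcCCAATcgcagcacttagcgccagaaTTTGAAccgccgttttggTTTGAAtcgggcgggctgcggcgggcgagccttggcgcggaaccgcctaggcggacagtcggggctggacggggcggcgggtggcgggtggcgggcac
In Cdk1, CHR words start 71 and 15 bases before the start of the gene, with NF-Y boxes at 80 and 48. Ube2c has its CHR word at 29, Cdc20 at 18, and Mki67 at 116 and 98. A match is a description of these letters and not evidence of binding.

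CHR stood in 18 of 21 promoters of spindle motor and cytokinesis genes (85.7%), 11 of 19 of mitotic regulators (57.9%) and 13 of 26 of kinetochore genes (50%). The same word was in 13.5% of the 6149 measured genes with a promoter, in 19.4% of all 27025 promoters and in 22.6% of the genes called lower. The NF-Y box was in 78.9%, 73.1% and 76.2% of mitotic regulators, kinetochore and spindle genes, against 38.7% of measured genes. Neither word was particular to these lists. CHR stood in 8 of 13 promoters of condensin, cohesin and related genes (61.5%), and the NF-Y box in 19 of 22 of the unfolded protein response (86.4%). Both words together stood in 54.5% of the promoters of the mitotic lists and in 5.69% of those of measured genes. In the mitotic lists 73.5% of CHR words lay within 50 bases of the start, against 23.1% of those in measured genes. Within the mitotic lists CHR stood in 27 of 35 promoters of members called lower (77.1%) and in 15 of 31 of those not called (48.4%). The NF-Y box did not differ in this way, with 26 of 35 (74.3%) and 24 of 31 (77.4%). These shares are descriptions with no test.

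**Figure D3:**
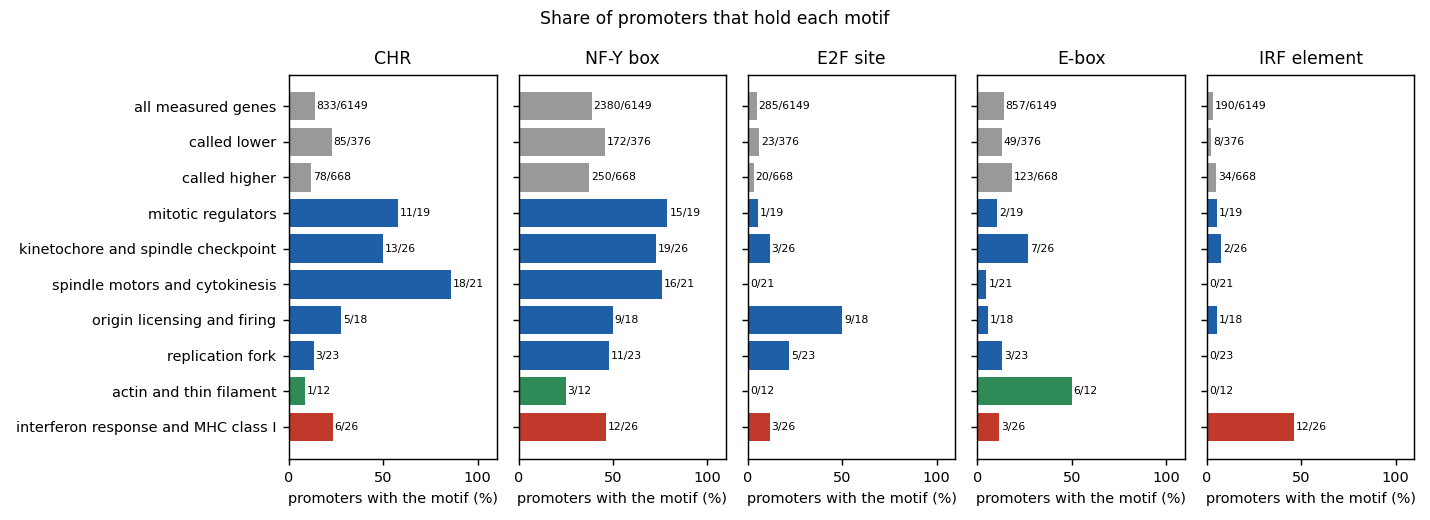
Share of promoters (horizontal, %) that hold each of 5 motifs, by gene set, with the number of promoters beside each bar; grey bars are all measured genes and those called lower or higher, blue bars lists of dividing cells, green thin filament genes and red interferon and MHC class I genes. Among the sets shown, CHR and NF-Y boxes are commonest in the mitotic lists and E2F sites in origin licensing (50%). Of the same sets, the thin filament has the largest share with E-boxes (50%) and the interferon list with the IRF element (46.2%).

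Among 26 measured mitotic regulators 15 were called lower and none higher, and the median log2 ratio was -1.07. Plk1, the polo-like kinase of mitotic entry, read 652, 544, 123 and 107 on days 2, 3, 5 and 14. Cdk1, the kinase that drives cells into mitosis, read 2483, 1300.3, 344 and 277 on the same days. Both were high on days 2 and 3 and low on days 5 and 14, and between day 3 and day 5 they were 4.44-fold lower and 3.78-fold lower. The anaphase-promoting complex, which marks mitotic proteins for destruction, was represented by its enzyme Ube2c (1208 on day 3 and 308 on day 5, 3.92-fold) and its activator Cdc20 (1453 on day 3 and 512 on day 5, 2.84-fold). The spindle kinase Aurka was 3.44-fold lower and Aurkb, the kinase of the centromere and midbody, 2.09-fold. The mitotic cyclins were less far down: Ccnb2 read 849 on day 3 and 371 on day 5 (2.29-fold) and Ccna2 1306 on day 3 and 616 on day 5 (2.12-fold). Some members of the same list stayed within 2-fold. Pttg1, the securin that guards sister chromatids, read 2473 on day 3 and 1934 on day 5, and the Cdk1 inhibitor Wee1 read 450.0 on day 3 and 357 on day 5. Foxm1, a transcription factor of G2 genes, read 105 on day 3 and 66.3 on day 5.

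Kinetochore and checkpoint genes, which attach chromosomes to the spindle and delay anaphase, had 12 of 29 members lower and none higher (median -0.84). Cenpa, the histone H3 variant of centromeres, read 915 on day 3 and 327 on day 5 (2.80-fold). Birc5, survivin, a subunit of the chromosomal passenger complex, read 853 on day 3 and 274 on day 5 (3.12-fold), and its partner Incenp was 2.30-fold lower. The checkpoint proteins Bub1, Bub1b, Mad2l1 and Ttk were 2.80-fold, 2.41-fold, 2.57-fold and 2.66-fold lower. Cenpk had the lowest ratio of the list, with 305 on day 3 and 88.8 on day 5. Among spindle motors and cytokinesis genes 17 of 25 were lower (median -1.11). Kif2c, a kinesin that takes microtubules apart, read 531 on day 3 and 106 on day 5 (5.00-fold), and its probe sets had log2 ratios from -2.32 to -1.10. Prc1, which bundles the central spindle, was 2.75-fold lower, the spindle assembly factor Tpx2 2.75-fold, and the contractile ring proteins Anln and Racgap1 2.16-fold and 2.13-fold. Kif11, the kinesin that separates spindle poles, read 155 on day 3 and 84.3 on day 5 and did not reach 2-fold.

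Genes of chromosome structure followed the other lists in part. Of 18 condensin, cohesin and related genes 5 were lower and none higher (median -0.43). Condensin compacts chromosomes at mitosis, and its subunits Ncapg, Ncapd2 and Smc2 were 3.33-fold, 2.34-fold and 2.31-fold lower, while Smc4 read 1346 on day 3 and 1095 on day 5. Cohesin holds sister chromatids and also shapes chromatin in cells that do not divide. Its core subunits Smc1a and Smc3 read 685 on day 3 and 713 on day 5 and 611 on day 3 and 437 on day 5, with probe sets of Smc1a on both sides of 0. The cohesin regulator Cdca5, sororin, was 2.65-fold lower. Mki67, the Ki-67 antigen of cycling cells, read 1719.6, 1631, 725 and 737 on the 4 days and was 2.25-fold lower on day 5, and Top2a, the topoisomerase that untangles sister DNA, read 1486 on day 3 and 786 on day 5, short of 2-fold.

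S phase genes are shown with the E2F word, searched as TTTCCCGC, TTTCGCGC, TTTGCCGC or TTTGGCGC on both strands and capitalised below. The words can overlap each other on opposite strands, as they do in Mcm5.
Mcm5 (chr8:75109349-75109508, plus strand): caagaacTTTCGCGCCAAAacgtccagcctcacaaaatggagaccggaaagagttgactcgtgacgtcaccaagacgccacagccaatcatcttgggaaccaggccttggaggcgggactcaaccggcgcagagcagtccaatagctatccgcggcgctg
Cdc6 (chr11:98907991-98908150, plus strand): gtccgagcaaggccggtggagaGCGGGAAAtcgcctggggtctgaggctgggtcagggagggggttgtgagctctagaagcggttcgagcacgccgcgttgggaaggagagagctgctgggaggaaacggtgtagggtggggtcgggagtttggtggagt
It stood in 9 of 18 promoters of origin licensing genes (50%), 6 of 16 of the G1 list (37.5%) and 5 of 23 of replication fork genes (21.7%). In the condensin and cohesin list the word stood in 6 of 13 (46.2%). Among measured genes the share was 4.63%, and in all promoters 2.32%. Within the licensing and fork lists the word stood in 6 of 18 promoters of lower members (33.3%) and 8 of 23 not called (34.8%).

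Origin licensing loads the MCM helicase onto DNA before S phase. Of 22 measured genes of this step 13 were lower and none higher (median -1.06). Cdc6, a loader of the helicase, read 505, 245, 91.7 and 47.9 on days 2, 3, 5 and 14, and Mcm5, a subunit of it, 759.5, 546, 209.8 and 117. Each value lay below that of the preceding array. Of the 6 core subunits, Mcm3, Mcm4, Mcm5 and Mcm7 were called (2.37-fold, 2.07-fold, 2.60-fold and 2.04-fold lower), while Mcm2 and Mcm6 read 1.98-fold and 1.78-fold lower. Cdt1, the other loader, read 1548 on day 3 and 733 on day 5, and Gmnn, geminin, which blocks it, 807 on day 3 and 291 on day 5 (2.78-fold). Cdc45, which joins the helicase at firing, was 3.19-fold lower. The origin recognition complex was mixed, with Orc2 and Orc6 2.25-fold and 2.11-fold lower and Orc5 at 229.8 on day 3 and 187 on day 5.

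At the replication fork 11 of 28 genes were lower and none higher (median -0.91). Fen1, which trims the ends of lagging strand fragments, had the lowest ratio, with 3277, 1723, 482 and 281 on the 4 days. The catalytic subunits of polymerases delta and epsilon, Pold1 and Pole, were 2.29-fold and 2.12-fold lower, whereas Pola1, that of polymerase alpha, read 177 on day 3 and 136 on day 5. Pcna, the sliding clamp, stayed within 2-fold at 4789 on day 3 and 2700.3 on day 5, as did Lig1, the ligase of the lagging strand, at 755 on day 3 and 406 on day 5. Repair genes of dividing cells had 5 of 20 members lower (median -0.70). Trip13, an ATPase that remodels meiotic and checkpoint proteins, was 4.54-fold lower and Rad54l, of homologous recombination, 2.57-fold. Brca1 and Chek1 read 198 on day 3 and 103 on day 5 and 169.6 on day 3 and 111 on day 5, both short of 2-fold.

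Precursor supply for DNA had a median of -1.12, close to that of the spindle list, with 14 of 23 genes lower. Ribonucleotide reductase, which turns ribonucleotides into deoxyribonucleotides, read 3293, 2737, 1111 and 416 for its S phase subunit Rrm2 and 2580.2, 1982, 913 and 489 for Rrm1 on the 4 days. Thymidine kinase Tk1 read 1119, 765, 258 and 76.1. All 3 were highest on day 2 and lowest on day 14. The folate and one-carbon enzymes that feed purine and thymidylate synthesis held several of the lower members: Mthfd2 read 852 on day 3 and 254 on day 5 (3.36-fold), Shmt1 354 on day 3 and 112 on day 5 (3.14-fold, probe sets from -1.65 to -0.82), Mthfd1 1092 on day 3 and 453 on day 5 (2.41-fold) and Shmt2 783 on day 3 and 383 on day 5 (2.04-fold). Cad, which opens pyrimidine synthesis, and Gart, of the purine route, were 2.31-fold and 2.17-fold lower. Paics, another purine enzyme, read 1734 on day 3 and 2078 on day 5, with probe sets of both signs, and Umps 312 on day 3 and 221 on day 5.

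The G1 switch itself was less uniform. Of 23 cyclins, kinases and Rb-E2F genes 5 were lower and 1 was higher (median -0.49). Ccnd1, cyclin D1, which answers to growth factors, read 2673, 801, 303 and 1324 on the 4 days: it was lowest on day 5, 2.64-fold under day 3, and read higher again on day 14. Its 3 probe sets had log2 ratios from -2.26 to -0.62. Ccnd3, cyclin D3, read 330.1, 765, 990.3 and 994 and Ccnd2 51.2, 70.3, 119 and 290.3, neither past 2-fold at this step. Ccne2, cyclin E2, was 3.02-fold lower, E2f1 2.43-fold and the repressor E2f8 3.34-fold lower, with E2f8 at 643 on day 3 and 192 on day 5. The kinases Cdk2 and Cdk4 read 226 on day 3 and 165 on day 5 and 2727 on day 3 and 2240.0 on day 5. Of the pocket proteins, Rbl2, p130, which assembles the repressor complex of resting cells, read below the floor, 57.3, 115 and 114 and was 2.01-fold higher. This call lay at the 2-fold line: no member of the list was called higher with a common median, after quantile normalisation or with a floor of 100. Rb1 read 263 on day 3 and 218 on day 5 and Rbl1, p107, 211 on day 3 and 145 on day 5. Myc, a driver of growth, read 347, 356, 640.1 and 1161 and was 1.80-fold higher on day 5, short of a call and opposite in sign to most of this list.

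**Figure D4:**
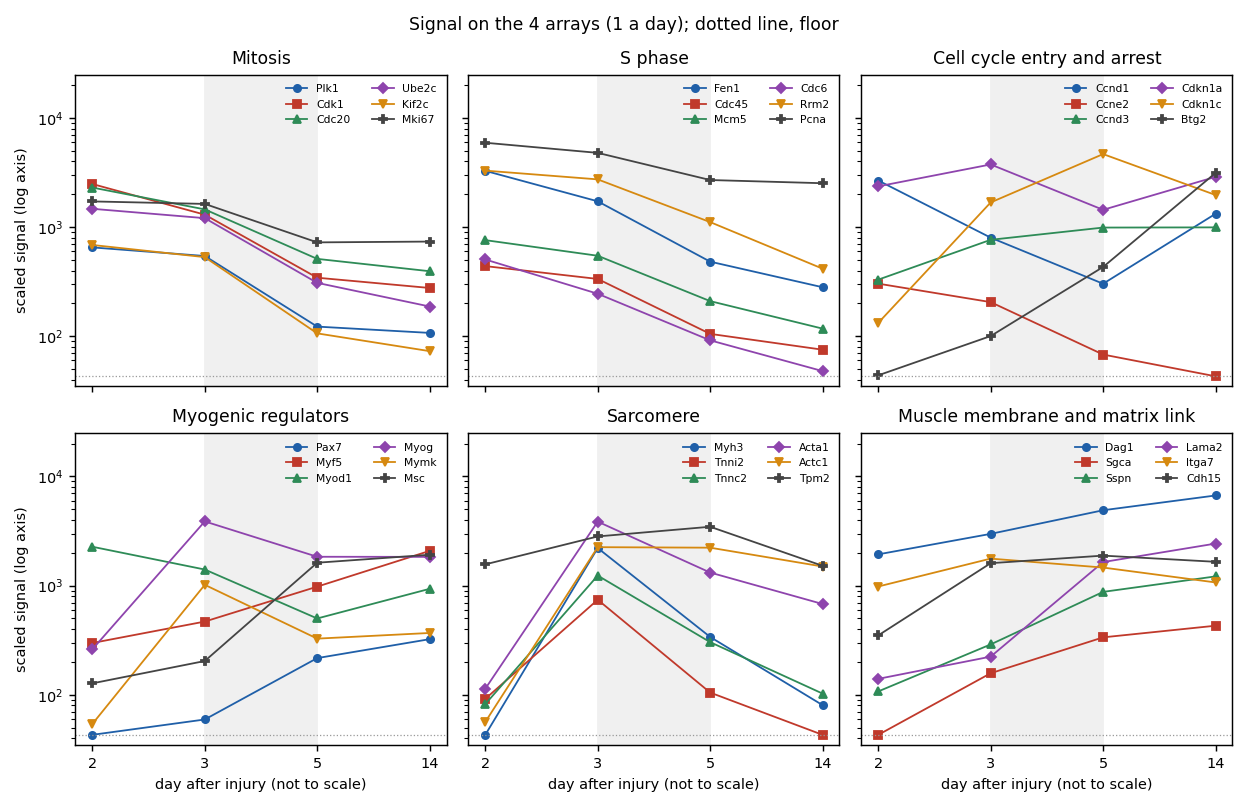
Scaled signal (vertical, log axis) of 36 genes on the 4 arrays, by day after injury (horizontal, not to scale) in 6 panels by role, with the step from day 3 to day 5 shaded and the floor dotted. Mitotic and S phase genes step down between days 3 and 5, Cdkn1c, Msc and Lama2 step up, and in the sarcomere panel Tnni2 and Myh3 step down while Actc1 and Tpm2 stay level.

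Chromatin genes of dividing cells had 8 of 20 members lower and none higher (median -0.92). Hmgb2, a DNA-bending protein of cycling cells, read 429 on day 3 and 118 on day 5 (3.64-fold). The histone chaperone Nasp was 2.69-fold lower and H2az1, a histone H2A variant, read 7275 on day 3 and 3444 on day 5 (2.11-fold). Uhrf1, which guides DNA methylation to new strands, was 2.12-fold lower and its partner Dnmt1 read 925 on day 3 and 483 on day 5. Lmnb1, lamin B1, a nuclear envelope protein, was 2.26-fold lower. Ezh2, the Polycomb methyltransferase, read 684 on day 3 and 413 on day 5, not past 2-fold.

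Growth arrest genes were higher on balance, 9 of 25 against 11.6% of all measured genes, with 1 lower (median 0.71). The inhibitors of cyclin-dependent kinases went different ways. Cdkn1c, p57, read 133, 1683, 4667 and 1969.5 on days 2, 3, 5 and 14 and was highest on day 5, 2.77-fold over day 3. Cdkn1a, p21, read 2363, 3751, 1440.2 and 2886 and was lowest on day 5, 2.60-fold under day 3. Cdkn1b, p27, read 49.4, 65.2, 122 and 201, above the preceding array each time but not past 2-fold at this step, and Cdkn2c, p18, read 569.8 on day 3 and 559 on day 5. Thus p57 and p21 ran in opposite directions over the same step. Btg2, an antiproliferative gene that also belongs to the early response, read 43.9, 100.4, 431 and 3134 (4.30-fold), Klf9 935, 667, 1887 and 6562 (2.83-fold) and the stress gene Gadd45a 78.0 on day 3 and 226 on day 5 (2.90-fold). Foxo1, a transcription factor of quiescence, was 2.31-fold higher, though its probe sets ran from 0.17 to 1.98. The p53 target list, in contrast, had a median of -0.16, which became 0.15 with values as deposited, and 3 of 16 members were higher and 1 lower. Mdm2, the ubiquitin ligase of p53 and one of its main targets, read 269 on day 3 and 232 on day 5.

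Genes of cell growth were lower by a smaller amount. Ribosome biogenesis had 12 of 46 members lower and none higher, a median of -0.81. Ncl, nucleolin, read 5474, 4489.6, 2179 and 2652 on the 4 days, Nolc1, another nucleolar phosphoprotein, 967 on day 3 and 335 on day 5 (2.89-fold, probe sets from -1.53 to -0.54), and the RNA polymerase I subunit Polr1b 212 on day 3 and 87.2 on day 5 (2.43-fold). Ribosomal protein genes, by comparison, had none of 42 called in either direction and a median of -0.09, which was 0.21 with values as deposited. Initiation factors had no call either, in 24 genes (median -0.27, or 0.04 with values as deposited). The nucleolar genes that build ribosomes and the protein genes of the ribosome thus gave different counts.

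Amino acid supply and tRNA charging form a further list of growth genes. Of 27 tRNA synthetases, transporters and amino acid enzymes 8 were lower (median -0.79). The serine pathway is 3 enzymes long, and all 3 were lower: Phgdh read 3449.8 on day 3 and 1075 on day 5 (3.21-fold), Psat1 1177 on day 3 and 381 on day 5 (3.09-fold) and Psph 307 on day 3 and 116 on day 5 (2.65-fold). Asns, which makes asparagine, read 1018, 814, 244 and 103 on the 4 days (3.34-fold). Serine gives the carbon that Shmt1, Shmt2 and Mthfd2 above pass on. Of the synthetases, Vars, Aars, Iars and Rars were 2.52-fold, 2.40-fold, 2.24-fold and 2.05-fold lower, and Slc7a5, the leucine transporter, read 409 on day 3 and 244 on day 5.

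Nuclear transport had 5 of 29 members lower (median -0.49). Ranbp1, a regulator of the Ran cycle, read 3460.4 on day 3 and 1222 on day 5 (2.83-fold) and the pore scaffold protein Nup107 678 on day 3 and 268 on day 5 (2.53-fold), while Ran itself read 6259 on day 3 and 5558 on day 5. Chaperonins and mitochondrial chaperones had 4 of 16 lower (median -0.84), among them the mitochondrial Hspd1 at 4386 on day 3 and 2094 on day 5 (2.09-fold) and Hspa9 at 2032 on day 3 and 994 on day 5 (2.05-fold). The cytosolic chaperonin subunits from Cct2 to Cct8 that were measured were all within 2-fold. Splicing factors had 3 of 35 lower and the proteasome 2 of 31 (8.57% and 6.45%), near the 5.97% of all measured genes, with medians of -0.47 and -0.50.

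Mitochondrial energy genes were lower in the median, and few passed 2-fold. Oxidative phosphorylation had 8 of 69 members lower (11.6%) and a median of -0.53, with Cycs, cytochrome c, at 4087 on day 3 and 1730.4 on day 5 (2.36-fold). The tricarboxylic acid cycle had 4 of 23 lower (median -0.55), with Idh3a, a subunit of isocitrate dehydrogenase, 2.86-fold lower and citrate synthase Cs at 2846 on day 3 and 1944 on day 5. Fatty acid oxidation had 1 gene higher and none lower of 23, with a median of -0.01 that was 0.29 with the deposited values. Cholesterol synthesis had 4 of 19 lower (median -0.38). Its enzymes Msmo1, Idi1, Fdps and Hmgcs1 were 3.52-fold, 3.36-fold, 2.76-fold and 2.61-fold lower. Hmgcs1 read 1788, 2623, 1004 and 1715 on the 4 days and Idi1 336, 398, 119 and 327: both read higher on day 14 than on day 5. The 4 probe sets of Hmgcs1 had log2 ratios from -1.39 to -0.31.

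Muscle genes differed among themselves. The sarcomere lists together had 12 of 38 measured genes lower and 1 higher. Myosin and thick filament genes had 4 of 8 lower (median -1.60), and thin filament genes 6 of 14 (median -0.64). Acta1, the actin of mature skeletal muscle, read 114, 3858, 1318 and 679 on days 2, 3, 5 and 14, whereas Actc1, the actin of heart and developing muscle, read 56.4, 2251, 2227 and 1497. Acta1 was 2.93-fold lower on day 5 and Actc1 was level. The fast troponins showed large differences: Tnni2 read 91.8, 742, 105 and below the floor (7.09-fold), Tnnt3 48.4, 516, 113 and 60.8 (4.55-fold) and Tnnc2 82.1, 1237, 304 and 103 (4.07-fold). Of the slow or cardiac forms, Tnnc1 was 4.45-fold lower and Tnni1 2.25-fold, while Tnnt1 and Tnnt2 read 2071 on day 3 and 1246 on day 5 and 1617 on day 3 and 1269.7 on day 5, within 2-fold. Tpm2, beta-tropomyosin, read 2823 on day 3 and 3463 on day 5 and Des, desmin, 1619.5 on day 3 and 1787 on day 5. So the lower calls lay with Acta1, Myh3, Mylpf and most troponins, and not with Actc1, Tpm2, Tnnt2 or Des. Z disc genes had 2 lower and 1 higher of 16, with a median of -0.12 that was 0.19 with values as deposited. The higher gene was Fbxo32, atrogin-1, a ubiquitin ligase of muscle, with 93.8 on day 3 and 326 on day 5 (3.48-fold).

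Promoters of 2 of the lower thick filament genes hold the E-box CAGCTG, the word that MyoD and myogenin prefer, which reads the same on both strands and is capitalised here.
Mybph (chr1:134193288-134193447, plus strand): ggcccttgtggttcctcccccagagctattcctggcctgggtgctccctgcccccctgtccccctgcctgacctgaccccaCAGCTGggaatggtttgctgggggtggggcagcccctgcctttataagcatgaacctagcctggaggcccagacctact
Mylpf (chr7:127211448-127211607, plus strand): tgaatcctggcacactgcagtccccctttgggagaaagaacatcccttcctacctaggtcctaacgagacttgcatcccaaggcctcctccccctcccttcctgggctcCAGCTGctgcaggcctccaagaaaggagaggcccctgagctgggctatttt
Mybph, a myosin-binding protein of fast muscle, read 432 on day 3 and 67.4 on day 5 (6.41-fold) and Mylpf, the fast regulatory light chain, 2896 on day 3 and 620.3 on day 5 (4.67-fold). CAGCTG stood in 6 of 12 thin filament promoters (50%) and 5 of 9 promoters of excitation-contraction coupling (55.6%), against 13.9% of measured genes. The word was also common outside the muscle lists, in 6 of 11 promoters of macrophage markers (54.5%) and 5 of 12 of fibroblast markers (41.7%). The E-box was in 13.0% of genes called lower and 18.4% of those called higher.

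Excitation-contraction coupling had 2 of 13 lower, and both were calsequestrins, the calcium stores of the reticulum: Casq2 read 240.2 on day 3 and 49.3 on day 5 (4.88-fold) and Casq1 210.0 on day 3 and 67.3 on day 5 (3.12-fold). The calcium release channel Ryr1 read 255 on day 3 and 247 on day 5 and the calcium pump Atp2a1 618 on day 3 and 646 on day 5. The list median was -0.09, or 0.22 with values as deposited. Acetylcholine receptor and synapse genes had 2 lower and 1 higher of 11, with a median of -0.10 that was 0.23 with the deposited values. Chrnd, the delta subunit, was at least 2.32-fold lower, Chrng, the fetal gamma subunit, read 688 on day 3 and 383 on day 5, and Agrn, agrin, which clusters the receptors, read 87.3 on day 3 and 286 on day 5 (3.27-fold).

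The dystrophin complex, which ties the muscle membrane to laminin, was the muscle list with the highest median, 0.88, with 6 of 12 members higher and none lower. Dmd, dystrophin, read below the floor, below the floor, 89.0 and 265 on the 4 days and was at least 2.07-fold higher. Sgca, alpha-sarcoglycan, read below the floor, 158, 336 and 429 (2.13-fold), Sgce, epsilon-sarcoglycan, 158, 226, 1044 and 1036 (4.62-fold), and Lama2, the laminin chain to which the complex binds, 139.9, 224, 1644 and 2428 (7.35-fold). All 4 were higher on days 5 and 14 than on days 2 and 3. Dag1, dystroglycan, the core of the complex, read 2981 on day 3 and 4906 on day 5 without a call. Sspn, sarcospan, was 3.03-fold higher, with probe sets from 0.01 to 1.60. Lama2 and Sgce are also made by fibroblasts, and the sum of fibroblast markers differed at this step as given above.

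Myogenic transcription factors went both ways, 4 higher and 4 lower of 20, with a median of 0.08 that was -0.12 with a common median. Among the lower were factors of the committed and differentiating cell. Myod1 read 2272, 1405, 500.2 and 935 on days 2, 3, 5 and 14 (2.81-fold), Myog 261, 3876, 1839 and 1835 (2.11-fold) and Mef2a 957, 1547, 721 and 655 (2.15-fold), although other probe sets of Mef2a reached -0.16. The higher ones included factors of satellite cells and repressors. Pax7 read below the floor, 59.4, 217 and 323 (3.65-fold), Myf5 298, 469, 979 and 2081 (2.09-fold), Msc, musculin, a repressor of MyoD targets, 127, 204, 1622 and 1919 (7.95-fold) and Heyl, a Notch target, below the floor, 208, 781 and 1169 (3.76-fold). Id1, which blocks E proteins, was 2.47-fold lower, Id3 read 688 on day 3 and 781 on day 5, and Mef2c and Mef2d were level at 122 on day 3 and 119 on day 5 and 278 on day 3 and 274 on day 5.

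Fusion and adhesion genes were split as well, with 6 higher and 4 lower of 26 (median 0.23, turning to -0.0048 with a common median). Mymk, myomaker, which myoblasts need to fuse, read 54.0, 1017, 327 and 368 (3.11-fold), Cav3, the muscle caveolin, 122 on day 3 and 49.8 on day 5 (2.45-fold) and Cavin4, its partner, 917 on day 3 and 85.2 on day 5 (10.8-fold). Nrcam, a neuronal-type adhesion molecule, read 435 on day 3 and below the floor on day 5 (at least 10.1-fold). Adam12, a protease of fusing myoblasts and of stroma, read 69.2 on day 3 and 408 on day 5 (5.90-fold), and Jam3 188 on day 3 and 519 on day 5 (2.76-fold). Several surface proteins by which satellite cells are often sorted were within 2-fold: Itga7 read 1768 on day 3 and 1464 on day 5, Vcam1 1338 on day 3 and 2618 on day 5, Cdh15 1606 on day 3 and 1884 on day 5 and Ncam1 912 on day 3 and 1485 on day 5. Vcam1 was just short of a call, and the surface receptor Cxcr4, given below, was called higher.

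Markers of satellite cell quiescence numbered 16 higher and none lower among 31 measured (median 1.28). That is 51.6% called higher against 11.6% of all measured genes. Of the 31, 24 lay above the floor on day 3 and 30 on day 5, so some were measured only through day 5. With a floor of 100, 15 of 26 were higher. Chodl, chondrolectin, read below the floor, below the floor, 517 and 3123 on the 4 days (at least 12.0-fold), Spry1, a brake on FGF signals that satellite cells need to rest, 118, 241, 856 and 2334 (3.54-fold), and Bmp6 below the floor, below the floor, 215 and 1437 (at least 5.01-fold). All 3 were highest on day 14. Cxcr4, the receptor of Cxcl12, was 5.52-fold higher, with 71.7 on day 3 and 396 on day 5. Other classical markers were not past 2-fold on day 5: Calcr, the calcitonin receptor, read below the floor, below the floor, 49.5 and 615, Cd34 169, below the floor, 48.6 and 526 and Sdc4, syndecan-4, 609, 398, 447 and 1119. Their day 14 values lay above those of day 5 in each case. Several members of this list, such as Col5a1, are matrix genes as well.

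**Figure D5:**
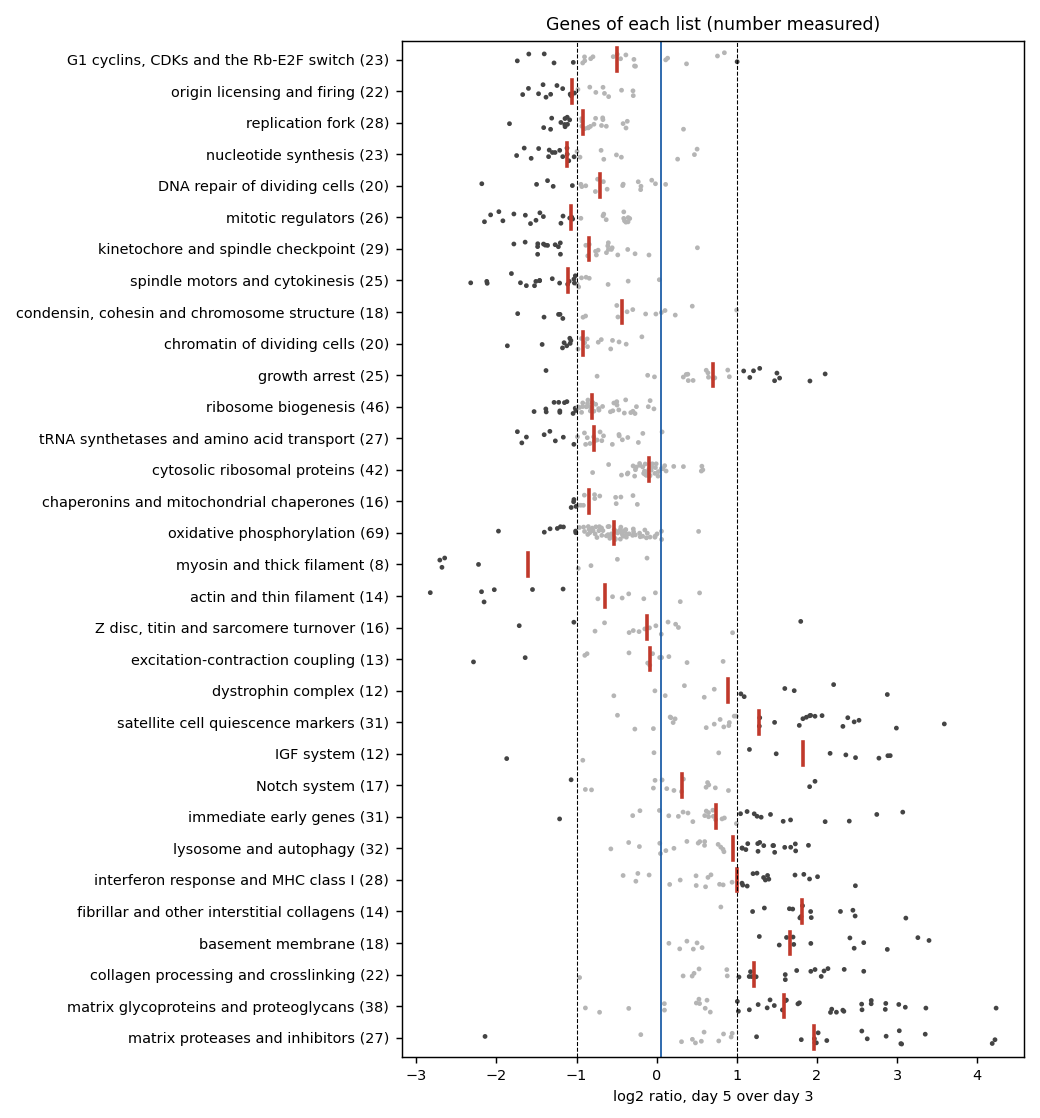
Log2 ratio of day 5 over day 3 (horizontal) for each measured gene of 32 lists, with the number measured after each name; dark points are past 2-fold (dashed lines), red bars list medians and the blue line the median of all measured genes (0.06). Lists of dividing cells lie left of the blue line, matrix lists right of it, with medians from -1.12 (nucleotide synthesis) to -0.43 (condensin and cohesin) and from 1.21 to 1.97.

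Signal systems of growth factors had more higher than lower members, as did all measured genes (11.6% higher and 5.97% lower). In the IGF system 8 of 12 genes were higher and 1 lower (median 1.83). Among ligands, Igf2 read 77.4, 478, 3605 and 4220.0 and Igf1 below the floor, 114, 639 and 990.2 on the 4 days. Of the receptors, Igf2r, which clears Igf2, read 178 on day 3 and 797 on day 5 (4.48-fold), whereas Igf1r, the signalling receptor, read 81.4 on day 3 and below the floor on day 5. Of the binding proteins Igfbp3, Igfbp4, Igfbp5 and Igfbp7 were 6.84-fold, 5.14-fold, 2.81-fold and 7.39-fold higher and Igfbp2 3.66-fold lower. Receptors Fgfr1 and Fgfr4 read 134 on day 3 and 384 on day 5 (2.87-fold) and 958 on day 3 and 2329 on day 5 (2.43-fold), and Dusp6, a phosphatase induced by ERK, was 3.25-fold higher. Erbb3, the neuregulin receptor, was 3.28-fold lower. In the FGF, HGF and EGF list as a whole 6 of 12 were higher and 1 lower (median 0.98).

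TGF-beta and activin genes had 10 of 20 higher and none lower (median 1.02). The ligands Tgfb2 and Tgfb3 read 81.6 on day 3 and 409 on day 5 (5.01-fold) and 86.8 on day 3 and 623 on day 5 (7.18-fold), while Tgfb1 was below the floor on day 3 and 59.4 on day 5, without a call. The receptor Tgfbr2 was 2.90-fold higher, with probe sets from 0.54 to 1.53, and Tgfbr1 read 263 on day 3 and 359.9 on day 5. Fstl1, a secreted glycoprotein related to follistatin, read 496 on day 3 and 3379.6 on day 5 (6.81-fold). Of 14 BMP genes 4 were higher and 1 lower (median 0.70). In the PDGF and VEGF list 6 of 13 were higher and none lower (median 0.99). Pdgfc read below the floor, 82.8, 1455 and 801 (17.6-fold) and the receptors Pdgfra and Pdgfrb, both marks of stromal cells, below the floor on day 3 and 105 on day 5 and 66.7 on day 3 and 322 on day 5.

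Notch genes had 2 higher and 1 lower of 17 (median 0.31), so that most were not past 2-fold. These shares, 11.8% and 5.88%, were near those of all measured genes. Receptors read 283, 583, 894 and 889.8 for Notch1, 587, 405, 629.5 and 913 for Notch2 and 55.3, 209, 824 and 1165 for Notch3 on the 4 days, and Notch3 was 3.93-fold higher on day 5. Of the ligands, 2 were measured: Dll1 was 2.10-fold lower, with 516 on day 3 and 246 on day 5, and Jag2 read 93.8 on day 3 and 50.6 on day 5. Of the targets, Heyl was higher as given above, and Hes1 and Hey1 read 318 on day 3 and 369 on day 5 and 181 on day 3 and 176 on day 5. Imprinted growth genes had 8 of 14 higher and none lower (median 1.32). Plagl1, a zinc finger regulator of this set, read 558, 623, 5753 and 4346 (9.23-fold) and Meg3, a long noncoding RNA, 44.6, 146, 455 and 1613 (3.12-fold). Mest, another imprinted gene, read 2188 on day 3 and 4368 on day 5, just short of a call. Cdkn1c, Igf2 and Igf2r belong here too.

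Matrix genes were higher in 82 of 118 cases and lower in 1 (median 1.64), the reverse of the dividing lists. Each of the 5 matrix lists had more higher than uncalled or lower members. Of the 118, 100 lay above the floor on day 3 and all 118 on day 5, so 18 were measured only through day 5. With a floor of 100, 12 of 14 interstitial collagens and 22 of 36 glycoproteins and proteoglycans were higher. Of the proteases and inhibitors, 12 of 25 were then higher, with a median of 0.93. Among enzymes that mature collagen, 15 of 22 were higher: Lox, which crosslinks fibres, read 273, 803, 3414 and 872 (4.25-fold), its relative Loxl1 139, 469.7, 2817 and 2769 (6.00-fold), and the lysyl hydroxylase Plod2 84.9 on day 3 and 374 on day 5 (4.40-fold). Serpinh1, the collagen chaperone, read 2102 on day 3 and 3872 on day 5 and P4hb 3696 on day 3 and 4647 on day 5, both within 2-fold. Of 27 proteases and inhibitors 16 were higher. Mmp2 read 72.8, 307, 2542 and 4138 (8.27-fold) and its activator Mmp14 259.9 on day 3 and 2119.6 on day 5 (8.16-fold). Adam8, a protease of inflammatory and fusing cells, was the 1 lower member, with 309.7 on day 3 and 70.2 on day 5 (4.41-fold). Basement membrane genes had 12 of 18 higher, among them Nid1, nidogen, at 128 on day 3 and 680.2 on day 5 (5.32-fold) and Lamc1 at 82.6 on day 3 and 254 on day 5 (3.07-fold), while Hspg2, perlecan, read 189 on day 3 and 268 on day 5. Integrins were less uniform (3 higher and 1 lower of 14, median 0.11, or -0.08 with a common median), with Itgb5 4.75-fold higher, Itgav 2.13-fold higher and Itga3 2.40-fold lower, with probe sets from -1.26 to -0.29. The fibroblast marker list shares members with the matrix lists, its sum was also higher on day 5, and its part in these values was not tested.

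In the interferon and MHC class I list 14 of 28 measured genes were called higher, none was called lower, and the median was 1.0. The count was 5 of 24 with a floor of 100 and 6 of 19 without probe sets that can read several transcripts. The promoters of Gbp2 and B2m are shown with the element to which interferon regulatory factors bind, searched on both strands as GAAA, any 2 bases and GAAA again and capitalised.
Gbp2 (chr3:142620503-142620662, plus strand): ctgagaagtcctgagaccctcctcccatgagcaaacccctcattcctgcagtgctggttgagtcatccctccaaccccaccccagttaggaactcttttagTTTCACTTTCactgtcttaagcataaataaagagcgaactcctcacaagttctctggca
B2m (chr2:122147527-122147686, plus strand): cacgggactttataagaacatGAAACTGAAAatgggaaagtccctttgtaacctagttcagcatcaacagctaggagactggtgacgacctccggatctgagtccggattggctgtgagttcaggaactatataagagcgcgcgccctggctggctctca
The element stood in 12 of 26 promoters of this list (46.2%) and in 3.09% of those of measured genes. Among the members called higher it stood in 5 of 14 (35.7%), a smaller share than in the whole list. Gbp2, a guanylate-binding protein, read below the floor, 54.5, 304 and 271 on the 4 days (5.58-fold) and B2m, the light chain of MHC class I, 791, 925, 3061 and 4813 (3.31-fold). The heavy chains H2-K1 and H2-D1 read 582 on day 3 and 1468 on day 5 (2.52-fold) and 564 on day 3 and 1299 on day 5 (2.30-fold), though these genes are close copies and probes may read more than 1 of them. Peptide loading genes ran alongside: Tap1, the peptide transporter, read 43.3 on day 3 and 162 on day 5 (3.75-fold), Tapbp 300.1 on day 3 and 783 on day 5 (2.61-fold), and the immunoproteasome subunits Psmb8 and Psmb9 49.2 on day 3 and 198 on day 5 (4.02-fold) and 63.3 on day 3 and 133 on day 5 (2.11-fold). Psmb10, the third such subunit, read 282 on day 3 and 240.0 on day 5. The constitutive subunits that they replace, Psmb5, Psmb6 and Psmb7, read 1.68-fold, 1.45-fold and 1.48-fold lower, without a call. Macrophage markers were also higher at this step, 10 of 16 measured.

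Lysosome and autophagy genes had 16 of 32 higher and none lower (median 0.95). Scarb2, a lysosomal membrane protein, read 726 on day 3 and 2699.8 on day 5 (3.72-fold), Lamp2 848 on day 3 and 2331 on day 5 (2.75-fold) with probe sets from 0.45 to 1.75, and Hexa, a hexosaminidase, 501 on day 3 and 1370.2 on day 5 (2.73-fold). The autophagy proteins Gabarapl1 and Gabarap were 3.33-fold and 2.53-fold higher. Lamp1 and the protease Ctsl did not follow, with 1804 on day 3 and 2095 on day 5 and 4233 on day 3 and 2848 on day 5. Of 8 measured complement genes 5 were higher, but 6 of the 8 had 1 array at the floor and most were measured only through day 5, so the count is partly set by the floor (2 of 5 with a floor of 100). Serping1, the C1 inhibitor, read below the floor, 151, 1408 and 4265 (9.34-fold), C1s1 below the floor on day 3 and 209 on day 5 (at least 4.86-fold), and the 3 C1q chains, which macrophages make, between 101 and 132 on day 5. Cytokine genes had 6 higher and 1 lower of 19 (median 0.80), or 31.6% higher against 11.6% of all measured genes. All 19 lay above the floor on day 5 and 11 on day 3, so 8 were measured only through day 5 and this count is also partly set by the floor. With a floor of 100, 5 of 10 were higher. Cxcl12 read 163 on day 3 and 540.2 on day 5 (3.31-fold), its probe sets running from 0.52 to 1.73, and Il33 read 163 on day 3 and 58.0 on day 5 (2.81-fold).

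Immediate early genes, which cells switch on within minutes of a stimulus and also during dissociation of tissue, had 12 of 31 higher and 1 lower (median 0.74). Egr1 read 469.9, 2398, 5576 and 9858 on days 2, 3, 5 and 14, Fos 1139, 3539, 5892 and 9069 and Socs3 179, 461, 2442 and 3208. All 3 read higher on each array than on the preceding one. Between days 3 and 5 Egr1 was 2.33-fold higher and Socs3 5.29-fold higher, and Fos was within 2-fold. Fosl1, a Fos relative of growing cells, was 2.32-fold lower, with 468 on day 3 and 202 on day 5. How long each isolation took is not stated in the labels.

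The largest differences on day 5 included many genes of stroma and smooth muscle. Dcx, doublecortin, a microtubule protein of migrating neurons, read below the floor, below the floor, 1052 and 242 on the 4 days (at least 24.5-fold), though its probe sets ran from 0.55 to 4.61. Dpt came next (20.2-fold), followed by Mfap4, a microfibril protein (at least 18.8-fold), Htra3, a secreted protease (18.7-fold, probe sets from 1.26 to 4.22), Fap, fibroblast activation protein (18.2-fold), and Islr, a surface protein of mesenchymal cells. Islr read below the floor, 325, 5856 and 2827 and Fap below the floor, 68.6, 1249 and 874, both highest on day 5. Parm1, a mucin-like protein, was at least 17.2-fold higher, Nrep 13.8-fold, Tagln, a smooth muscle actin binder, 12.5-fold, Slc40a1, the iron exporter ferroportin, 11.6-fold (probe sets from 1.60 to 3.53), Col4a1, of basement membrane, 10.5-fold, and Tnc, tenascin-C, 10.3-fold. Tnc read 258, 262, 2691 and 435, high on day 5 alone. Dpt and Fap are fibroblast markers, whose sum differed at this step as given above. Among the largest decreases were Chchd10, a mitochondrial protein, with 213, 621, 66.7 and 117 (9.31-fold), Mtm1, myotubularin, a lipid phosphatase, with 283 on day 3 and below the floor on day 5 (at least 6.59-fold), Myh1, a fast adult myosin, with below the floor, 389.7, 62.3 and 235 (6.26-fold), and Aqp1, a water channel, with 289, 401, 73.3 and 346 (5.47-fold). Myh1 and Aqp1 read higher again on day 14.

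Genes outside all lists were taken by size, first those with both arrays above 100. Higher on day 5 were Itih5, which stabilises hyaluronan, with 108 on day 3 and 1150.3 on day 5 (10.6-fold), Apoe, apolipoprotein E, with below the floor, 112, 791 and 4662 on the 4 days, and Capn6, a calpain without protease activity, with 738 on day 3 and 4566 on day 5 (6.19-fold). Sox4, a transcription factor of progenitors, read 237 on day 3 and 1180.4 on day 5 (4.99-fold, probe sets from 0.70 to 2.48) and Dpysl3, of the neuronal growth cone, 352 on day 3 and 2011 on day 5 (5.71-fold). Lower on day 5 were Kcnn4, a calcium-activated potassium channel, with 1427, 1055, 125 and below the floor on the 4 days, Tuba4a, an alpha-tubulin, with 5760.5, 5106, 817 and 1089, and Gal, the neuropeptide galanin, with 2895, 2293, 415 and 422. These 3 were high on both early arrays and low on both late ones. Hmga2, a chromatin protein of embryonic and proliferating cells, read 1569, 559, 157 and below the floor (3.57-fold), Egln3, a prolyl hydroxylase of the hypoxia pathway, 588, 523, 111 and below the floor (4.69-fold, probe sets from -2.23 to -0.89), and Rras2 837 on day 3 and 222 on day 5 (3.77-fold). Among the largest decreases with day 5 values under 100, the keratins Krt8 and Krt18, which pair in simple epithelia, were 10.1-fold lower and 9.95-fold lower, with 429.5, 720.4, 71.6 and below the floor and 453, 484, 48.6 and below the floor on the 4 days.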

How the data were processed

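RNA of sorted cells was hybridised to 1 array a day, and the values are signal intensities that the authors deposited, made with MAS5 per the submitters' processing notes. No source used here gives the scaling target. Each array was multiplied to the common 2% trimmed mean (197), by 1.13 on day 3 and 0.917 on day 5. Signals under the pooled median of the 4 arrays, 43.0, were set to it, and log2 day 5 minus day 3 was taken. The medians of the scaled arrays, 41.7 and 49.1, still differed. Arrays give no count depth, so their number limits the precision. A gene with several probe sets was represented by the one with the highest mean log2 signal, and the range of its probe sets is given where it is wide. Probe sets were named from the platform annotation: 20393 had 1 symbol, 691 several and were left out, 1606 none. Of the symbols' gene IDs 20364 were found in RefSeq (GRCm38.p6), from which promoters came.

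Lists, 69 in all, were described by the members called and the median, beside all measured genes. The members and lists were chosen with earlier results of these data known. Named genes were the 15 largest differences in each direction, up to 6 called members a list and direction, called members of short lists, defining genes called or not, the 15 largest outside any list and the genes nearest 2-fold. The text gives values for the 15 largest and for part of the others. A few further members were named after their values were seen: Cad, Ctsl, Foxo1, Gabarap, Gart, H2az1, Hexa, Hsp90aa1, Hspa8, Iars, Lamp2, Mthfd1, Orc2, Orc5, Orc6, P4hb, Paics, Psmb5, Psmb6, Psmb7, Psmb9, Psmb10, Pttg1, Rars, Shmt2, Tapbp, Umps and Wee1. The calculation was tested on simulated data. The 9 alternatives are given in the closing section. Python 3.11.15, numpy 2.4.6, pandas 2.3.3, statsmodels 0.14.6 and matplotlib 3.10.9 were used.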

Additional observations from a re-analysis of the deposited data

How the results depend on the processing

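Of 65 list medians recomputed under 9 alternatives, 563 of 582 values lay within the probe set SD of the value given, and 50 medians kept their sign throughout. That SD, 0.37, is wider than the shift of all measured genes with the deposited values (0.27) or a common median (-0.22). The count of 563 therefore says little about a change of scaling. Of 363 named genes called, 233 kept their call in every setting in which they were measured. Called higher were 1725 genes at 1.5-fold, 316 at 3-fold, 1378 with values as deposited, 1447 with the floor at the 25th percentile and 551 with a floor of 100. Called lower were 1290 at 1.5-fold, 85 at 3-fold, 198 as deposited, 846 with a common median and 755 with the floor at the 25th percentile. With values as deposited the median was 0.62 for integrins and 1.91 for Schwann cell markers. With the floor at the 25th percentile it was -0.98 for myosin, 1.54 for matrix proteases, 1.28 for IGF, 0.36 for FGF, HGF and EGF and 0.92 for imprinted genes. With a floor of 100 it was -2.04 for myosin, 0.93 for proteases, 0.64 for interferon, 0.40 for complement and for macrophage markers, and 2.13 for fibroblast markers. With no floor and a pseudocount of 16 it was -2.10 for myosin and 0.89 for endothelial markers, and with the median over probe sets 0.40 for PDGF and VEGF. Without probe sets that can read several transcripts it was -0.22 for the thin filament, 1.61 for collagen processing and 0.55 for axon guidance, and Parva alone reversed, to -0.25. Counts of members moved as well. With values as deposited and with a common median, lower members numbered 6 and 15 for origin licensing, 4 and 19 for the fork, 4 and 27 for ribosome biogenesis, 5 and 15 for tRNA charging and 3 and 18 for oxidative phosphorylation. With a floor of 100, 3 fusion genes and 2 guidance genes were higher, with the floor at the 25th percentile 13 of 26 cytokine genes, and without probe sets that can read several transcripts 3 of 8 thin filament genes were lower. The higher floor leaves fewer genes and the lower floor more; the cause of the other changes was not tested. Leaving out an array was not run, since each day has 1. No paired analysis was possible because the labels carry no replicate numbers.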

Other observations

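Most heat shock genes were within 2-fold between day 3 and day 5, with 3 of 16 measured genes higher, 2 lower and a median of -0.16 that was 0.17 without probe sets that can read several transcripts. The inducible chaperones Hspa1a and Hspa1b, near-identical copies whose probes may read both, were 5.06-fold and 3.77-fold higher. Hspa1a read 217, 409.8, 2074 and 4108 on days 2, 3, 5 and 14. The constitutive Hspa8 and Hsp90aa1 were level, with 8931 on day 3 and 8391 on day 5 and 2869 on day 3 and 2429 on day 5, and the co-chaperone Fkbp4 was 2.09-fold lower. Antioxidant and metal-binding genes had 6 of 31 higher and 1 lower, with a median of 0.18 that was -0.06 with a common median. Selenop and Gpx3, both secreted selenoproteins, read 61.5, 244, 1742 and 2950.2 and 125, 511, 2942 and 5607 on the 4 days, and Txnip, an inhibitor of thioredoxin, 68.8, 62.6, 459 and 1455. Gsr, glutathione reductase, was 2.09-fold lower. The unfolded protein response had 3 of 25 higher and none lower (median 0.25). Its share of higher members, 12%, was near the 11.6% of all measured genes. The chaperone Hspa5 of this list read 6023 on day 3 and 6332 on day 5.

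Wnt genes had 2 higher and 1 lower of 16 (median 0.43). These shares, 12.5% and 6.25%, were near those of all measured genes. The receptor Fzd4 read 97.8 on day 3 and 277 on day 5 (2.83-fold). Wnt10a was at least 2.71-fold lower, and beta-catenin, Ctnnb1, was level at 3898 on day 3 and 3888 on day 5. Among guidance genes 5 of 19 were higher and none lower (median 0.17). Plxna2, a semaphorin receptor, was 3.41-fold higher and its ligand class was represented by Sema3a, 2.89-fold higher. Muscle energy isozymes had 2 higher and 3 lower of 23, with a median of -0.30 that was 0.02 with the deposited values. Eno3, the muscle enolase, read 4364, 4392, 829 and 148 on the 4 days (5.29-fold) and the muscle phosphoglycerate mutase Pgam2 146 on day 3 and 51.7 on day 5 (2.81-fold). Ckb, the brain-type creatine kinase, read 461 on day 3 and 943 on day 5 (2.04-fold) and its muscle form Ckm 146 on day 3 and 142 on day 5. NF-Y boxes stood in 14 of 15 promoters of cholesterol synthesis genes (93.3%), a share above that in the mitotic lists.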
